A study of Sus scrofa with 48 samples.

Results

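The core of the insulin receptor signalling pathway was followed in the perirenal adipose tissue of growing pigs through the array probes named for INSR, IRS1, IRS2, PIK3CA, PIK3R1, AKT1, AKT2 and FOXO1. Probes were taken wherever the scanner files gave one of these 8 gene names, with case ignored. The search found 14 of the 60305 probes on the array, which covered 7 of the 8 genes sought among 45222 names. IRS2 had 0 probes under its own name. A probe was tested when its spot was well above background on every array of at least 1 group, and 10 of the 14 probes, for 6 genes, passed. No tested probe of PIK3CA was left.

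The 48 pigs came from lines selected in opposite directions for residual feed intake (RFI), the feed eaten beyond what growth and upkeep predict, and were sampled at 132 days of age. Low-RFI pigs (RFIneg) and high-RFI pigs (RFIpl) had free access either to a diet rich in fat and fiber (HF) or to one low in fat and fiber (LF), with 12 pigs in each of the 4 groups and hence 24 pigs per diet. All samples were whole fat tissue of 1 depot, so a lower share of cells of a type and less RNA per cell cannot be told apart. Each pig was measured on its own one-colour array, and the precision was limited by the number of arrays.

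Insulin binding activates its receptor, a tyrosine kinase, which phosphorylates the insulin receptor substrates. These recruit phosphoinositide 3-kinase, whose lipid product brings the AKT kinases to the membrane to be activated. In fat cells, AKT promotes glucose uptake and lipid synthesis, and it phosphorylates the transcription factor FOXO1, which then leaves the nucleus. Much of this control acts on proteins, which arrays of RNA do not measure.

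The results turned on whether probes of 1 gene gave the same answer, so some of the probes compared with each other are shown here as deposited, 5′ to 3′, each of 60 bases and with no part set in capitals. The FOXO1 probes shown are a pair that varied together among pigs, and the IRS1 probes are both those tested.
FOXO1 A_72_P441344: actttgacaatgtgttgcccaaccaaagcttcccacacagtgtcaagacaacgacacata
FOXO1 A_72_P280234: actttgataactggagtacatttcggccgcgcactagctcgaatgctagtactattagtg
IRS1 A_72_P371473: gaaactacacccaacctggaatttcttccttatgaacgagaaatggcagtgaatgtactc
IRS1 A_72_P537138: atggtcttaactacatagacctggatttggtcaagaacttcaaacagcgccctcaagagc
No member probe shared a run of more than 10 bases with another member probe, on either strand. The files named no genome build, and positions of the probes in the genome were not analysed here.

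Diet changed the signal of 1 of the 10 tested probes, a FOXO1 probe that was higher in HF pigs, while across the array 24.3% of the 40509 tested probes changed with diet with 9.06% higher and 15.2% lower in HF pigs. The other 9 probes, for INSR, IRS1, PIK3R1, AKT1, AKT2 and FOXO1, did not pass the test. A probe was called when its unadjusted p was under 0.01, its fold was over 1.1 and its Benjamini-Hochberg adjusted p over all tested probes was under 0.08, in limma's moderated test with diet, line and their interaction. Levels below are log2 of the median spot signal minus the median of all probes on the same array, and differences are in the same log2 unit. The median diet difference over all tested probes was -0.022, and over the 10 probes it was 0.053.

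**Figure D1:**
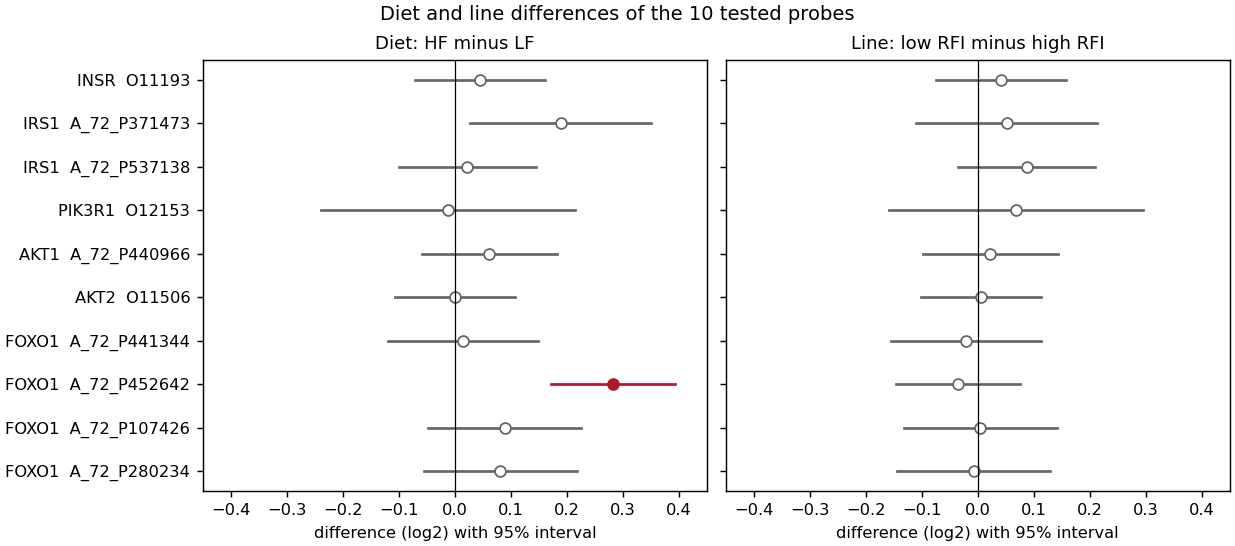
Differences between diets (HF minus LF, left) and between lines (low minus high RFI, right) of the 10 tested probes on the log2 scale. Points are estimates from limma, lines are 95% intervals, and the filled red point marks the probe called; the FOXO1 probe A_72_P452642 lies at 0.28 with an interval from 0.17 to 0.39, and the intervals of all the line differences include 0.

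INSR, the receptor, had 1 probe (O11193, filed under NM_000208). Its level ran from -0.17 through a median of 0.34 to 0.70 in HF pigs and from -0.04 through 0.27 to 0.71 in LF pigs. The diets overlapped over nearly their whole range. HF minus LF was 0.04 (SE 0.06), with a 95% interval from -0.07 to 0.16 and a limma adjusted p of 0.58. The diet difference was 0.12 (SE 0.08) in low-RFI pigs and -0.03 (SE 0.08) in high-RFI pigs, and the interaction did not pass the test (0.16, SE 0.11, unadjusted p = 0.176, limma). This was the lowest unadjusted interaction p among the 10 probes.

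IRS1, the main docking protein of the receptor in fat cells, had 4 probes, of which 2 were tested. The probe A_72_P371473, described in the files as a predicted IRS1-like transcript at the locus that the RefSeq table of assembly Sscrofa11.1 lists as IRS1, ran from 3.88 through a median of 4.21 to 5.0 in HF pigs and from 3.67 through 4.01 to 4.57 in LF pigs. In HF pigs 19 of 24 levels lay above the LF mean, and 3 lay above every LF level. The difference was 0.19 (SE 0.08), a 1.14-fold higher signal, with a 95% interval from 0.03 to 0.35. Its unadjusted p of 0.0229 missed the threshold, although its limma adjusted p of 0.0678 did not. Within lines it was 0.19 (SE 0.11) in both low-RFI and high-RFI pigs. The probe was called under both quantile normalisations, at 0.24 with adjusted p of 0.0207 and 0.0193 in limma.

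The other tested IRS1 probe, A_72_P537138, designed to the pig IRS1 mRNA record NM_001244489, gave a diet difference of 0.02 (SE 0.06) with a 95% interval from -0.10 to 0.14. Its level ran from -1.0 through -0.61 to -0.20 in HF pigs and from -0.98 through -0.61 to -0.10 in LF pigs. Neither diet stood apart from the other. Both IRS1 probes nevertheless varied together from pig to pig: after the mean of each group was removed, Pearson's r was 0.61 and Spearman's rho 0.61 over 48 pigs (both p = 3e-05, permutation test within groups, two-sided, adjusted over 45 pairs of probes to 0.00027 and 0.00034). It was 0.55 without the 2 pigs farthest from the median, and 0.52 and 0.62 within the scan days. The remaining IRS1 probes, A_72_P443378 and O11228, were well above background on 37 and 38 of the 48 arrays and not on all arrays of any group, so they were not tested.

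Phosphoinositide 3-kinase was represented by its regulatory subunit PIK3R1, since the only PIK3CA probe (O11313, the catalytic subunit alpha) was well above background on 31 of 48 arrays. The strand of the PIK3CA probe is uncertain as well, with 0 reading frames open as printed and 1 open in reverse. PIK3R1 (O12153) ran from 3.49 through a median of 4.30 to 5.27 in HF pigs and from 3.70 through 4.50 to 5.03 in LF pigs. It was the most variable of the tested probes, with an SD over all pigs of 0.39, and HF pigs held both its lowest and its highest level. The diet difference was -0.01 (SE 0.11), with a 95% interval from -0.24 to 0.21.

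The AKT kinases did not pass the test for diet. AKT1 (A_72_P440966, the isoform found in most tissues) ran from 2.66 through 2.91 to 3.55 in HF pigs and from 2.56 through 2.89 to 3.18 in LF pigs, with 3 HF pigs above every LF pig. Its difference was 0.06 (SE 0.06; 95% interval from -0.06 to 0.18). AKT2 (O11506, the isoform most tied to insulin-driven glucose uptake) ran from -1.14 through -0.65 to -0.29 in HF pigs and from -0.88 through -0.74 to -0.36 in LF pigs. The strand of this probe is not settled, and its values may not be those of AKT2 mRNA. Of its reading frames 1 is open as printed and 2 are open in reverse. Such counts cannot decide a strand, as FOXO1 A_72_P107426 and IRS1 O11228 have the same ones. Its mean was -0.70 in both diets, and the 95% interval of the difference was -0.11 to 0.11. Across INSR, AKT1, AKT2 and the IRS1 probe A_72_P537138, the 95% intervals of the HF to LF ratio of signals reached from 0.93-fold to 1.13-fold. No background was subtracted, and 3 of these probes were dim. Their median signals were 175.5 (INSR), 93 (A_72_P537138) and 87 (AKT2), beside 50 to 57 for the untested member probes. Ratios of such signals can lie closer to 1-fold than ratios of RNA, so these intervals do not bound the RNA change.

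FOXO1 had 5 probes, of which 4 were tested, and they did not give 1 answer. On the probe A_72_P452642, designed to the pig FOXO1 mRNA record NM_214014, low-RFI pigs ran from 2.55 through a median of 2.77 to 3.11 on HF and from 2.18 through 2.51 to 2.75 on LF. High-RFI pigs ran from 2.47 through 2.84 to 3.13 on HF and from 2.26 through 2.54 to 2.87 on LF. In HF pigs 23 of 24 levels were above the LF mean and 9 were above every LF level, while 8 LF levels were below every HF level. HF minus LF was 0.28 (SE 0.06), a 1.22-fold higher signal with a 95% interval of 1.13 to 1.31 and a limma adjusted p of 0.000155. It was 0.26 (SE 0.08, adjusted p = 0.0272) in low-RFI pigs and 0.30 (SE 0.08, adjusted p = 0.0083) in high-RFI pigs, with an interaction of -0.04 (SE 0.11). Of the tested probes on the array, 10.5% had a larger diet difference in size.

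The other 3 tested FOXO1 probes overlapped between diets over most of their range. The probe A_72_P441344, designed to the same mRNA record, ran from 5.0 through 5.46 to 6.03 in HF pigs and from 5.09 through 5.48 to 5.73 in LF pigs, and differed by 0.01 (SE 0.07; 95% interval from -0.12 to 0.15). The probe A_72_P107426 differed by 0.09 (SE 0.07) and A_72_P280234 by 0.08 (SE 0.07), with limma adjusted p of 0.33 and 0.38. Averaged over the 4 probes, FOXO1 differed by 0.12 (SE 0.05), which missed the threshold (limma adjusted p = 0.0826). The fifth FOXO1 probe, O2940, was well above background on 16 of 48 arrays and was not tested. It is the only FOXO1 probe with a stop codon in each reading frame as printed, whereas 2 frames of its reverse complement are open, so its strand is uncertain.

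**Figure D2:**
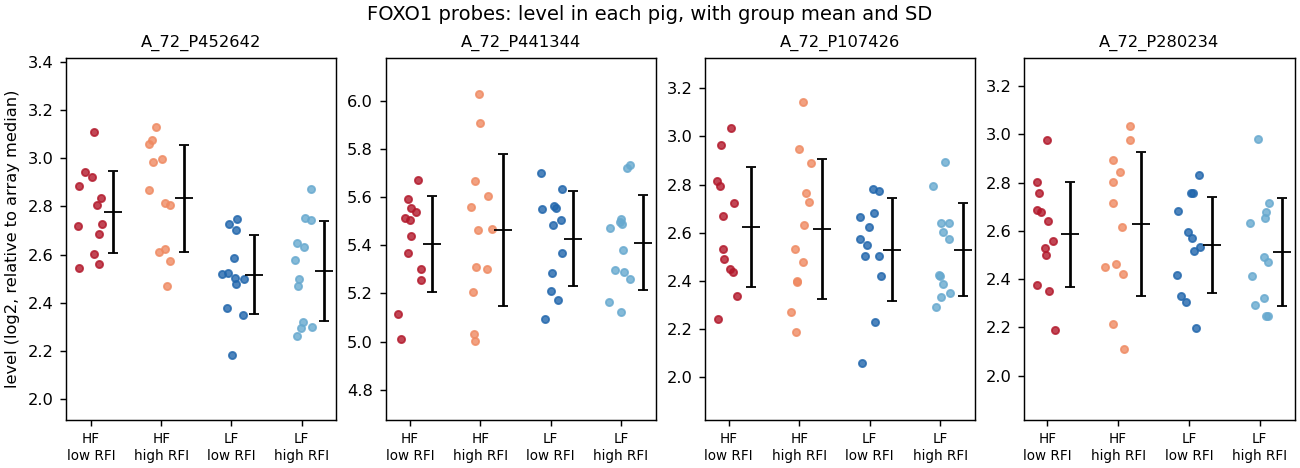
Level of the 4 tested FOXO1 probes in each pig (log2, relative to the array median), by diet and line, with 12 pigs a group. Points are pigs and bars are the group mean and SD; each panel spans the same log2 range, and the diets separate most on A_72_P452642, where 23 of 24 levels on HF exceed the LF average.

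The level of A_72_P452642 was also set against the mean of the other 3 probes within each pig. As this probe was singled out for being called, the comparison restates its diet difference and was given no test. On HF this within-pig difference averaged -0.75 ± 0.27 (SD, n = 24), and on LF it averaged -0.97 ± 0.25 (SD, n = 24). The diets differed by 0.22 on this scale. The mean of the other 3 probes itself differed by 0.06 between diets.

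The same probe also stood apart in how it varied among pigs of a group. Between the other 3 FOXO1 probes, r was 0.77 to 0.86 and rho 0.76 to 0.85 over 48 pigs with group means removed (each p = 1e-05, the smallest that the permutations can give, and 0.00015 adjusted over 45 pairs). These relations held within each scan day, at 0.71 to 0.88, and without the 2 pigs farthest from the median, at 0.74 to 0.84. In contrast, A_72_P452642 gave r of 0.16, 0.08 and 0.26 with these probes (permutation p of 0.32, 0.609 and 0.0913). A further probe on the array that carries the FOXO1 record NM_214014.1 in its name but no gene symbol, and hence fell outside the rule, had r of 0.89 with A_72_P441344 and 0.20 with A_72_P452642. Its diet difference was -0.02 (SE 0.07). Which of these probes follows the FOXO1 transcript was not tested.

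**Figure D3:**
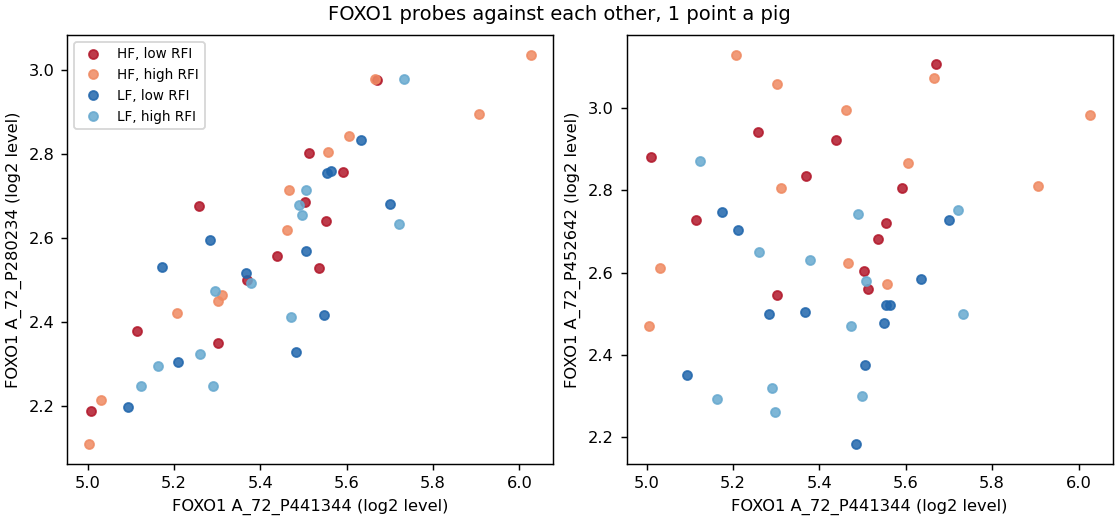
FOXO1 probes plotted against A_72_P441344, 1 point a pig (log2 levels, coloured by diet and line). A_72_P280234 follows A_72_P441344 closely (r = 0.86 with group means removed), whereas A_72_P452642 does not (r = 0.16) and is instead higher in HF than in LF pigs.

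Markers of other cells moved with diet beside this FOXO1 probe. Markers are given by the brightest tested probe of each gene. Over the brightest probes of all names, 10.4% were called higher and 13.6% lower in HF pigs. At these shares, few or 0 calls are likely in a group of 2 to 5 markers, so a group without a call says little. Of 7 macrophage markers 6 were tested and 4 rose in HF pigs (CD163, AIF1, CSF1R and C1QA), with CD68 not tested. The mean of the macrophage markers, each relative to its own average, ran from -0.97 through 0.28 to 1.27 in HF pigs and from -1.02 through -0.23 to 0.88 in LF pigs. Of 7 adipocyte markers, all tested and at levels of 4.46 to 10.80, CIDEC, PPARG and LEP fell in HF pigs. PPARG was at -0.19 (SE 0.07), with 2 of its 4 tested probes called lower. The study itself reported PPARG as higher on HF in this depot, by qPCR, so its direction differs between the methods. By the brightest probe, none of the tested T and NK cell (4), endothelial (5), fibroblast (5), skeletal muscle (4), adrenal (2) or erythrocyte (2) markers was called for diet, and AQP2, the only tested kidney marker, fell. Of the markers not called by their brightest probe, 4 had other probes called lower in HF pigs: in muscle 2 of 3 for MYH7 and 1 of 11 for CKM, and among adipocyte markers 1 of 8 for FABP4 (-0.14, SE 0.05, limma adjusted p = 0.0192) and 1 of 4 for LIPE (-0.17, SE 0.06, adjusted p = 0.0297). The part of these cells in the FOXO1 difference was not tested.

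None of the 10 tested probes passed the test for line, against 3.57% of all tested probes and 3.70% of the brightest probes of all names called for line. By unadjusted p the count was also 0 of 10, against 13.0% of all tested probes with a p under 0.05, and a two-way ANOVA, the study's own test, gave 0 as well. Differences between low-RFI and high-RFI pigs ran from -0.03 for FOXO1 A_72_P452642 to 0.09 for IRS1 A_72_P537138. For the latter, low-RFI pigs ran from -0.90 through -0.59 to -0.10 and high-RFI pigs from -1.0 through -0.62 to -0.20. Its difference had a 95% interval from -0.03 to 0.21 (limma adjusted p = 0.61). The widest line interval was that of PIK3R1, from -0.16 to 0.30.

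The diet by line interaction called 0 of the 10 probes and 0% of all 40509 tested probes in limma, where 2.23% had an unadjusted p under 0.05. The two-way ANOVA called 0 too, and 0 of the 10 probes had an unadjusted p under 0.05. Interaction intervals were wide, reaching from -0.46 to 0.45 for PIK3R1.

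Among the members, PIK3R1 varied with FOXO1 from pig to pig. Over 48 pigs with group means removed, its r was 0.61 with A_72_P441344, 0.49 with A_72_P107426 and 0.53 with A_72_P280234, with rho from 0.46 to 0.56 (permutation p of 3e-05, 0.0013 and 0.00043, and 0.00027, 0.0084 and 0.0032 adjusted over 45 pairs). Without the 2 pigs farthest from the PIK3R1 median r was 0.37 to 0.50, and within the scan days it was 0.49 to 0.65. With A_72_P452642 it was 0.04. AKT1 and the AKT2 probe, of unsettled strand, also varied together (r = 0.44, rho = 0.46, permutation p of 0.00496 and 0.00177, adjusted to 0.0279 and 0.0112), at 0.38 without the 2 farthest pigs and at 0.51 and 0.38 within scan days. INSR gave r of 0.37 with IRS1 A_72_P371473 (adjusted p = 0.079, permutation), which was -0.09 on scan day 1 and 0.64 on scan day 2. In all, 4 of the 38 pairs of different genes had an adjusted p under 0.05. Of these, 3 were PIK3R1 with FOXO1 probes that vary together, so they are not separate results. Among brightest probes of all names, 0.03%, 0.23% and 0.14% had an r with PIK3R1 at least as high as those with A_72_P441344, A_72_P107426 and A_72_P280234. For AKT1, 1.67% had an r at least as high as that with AKT2. All pairs share arrays and their centring.

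**Figure D4:**
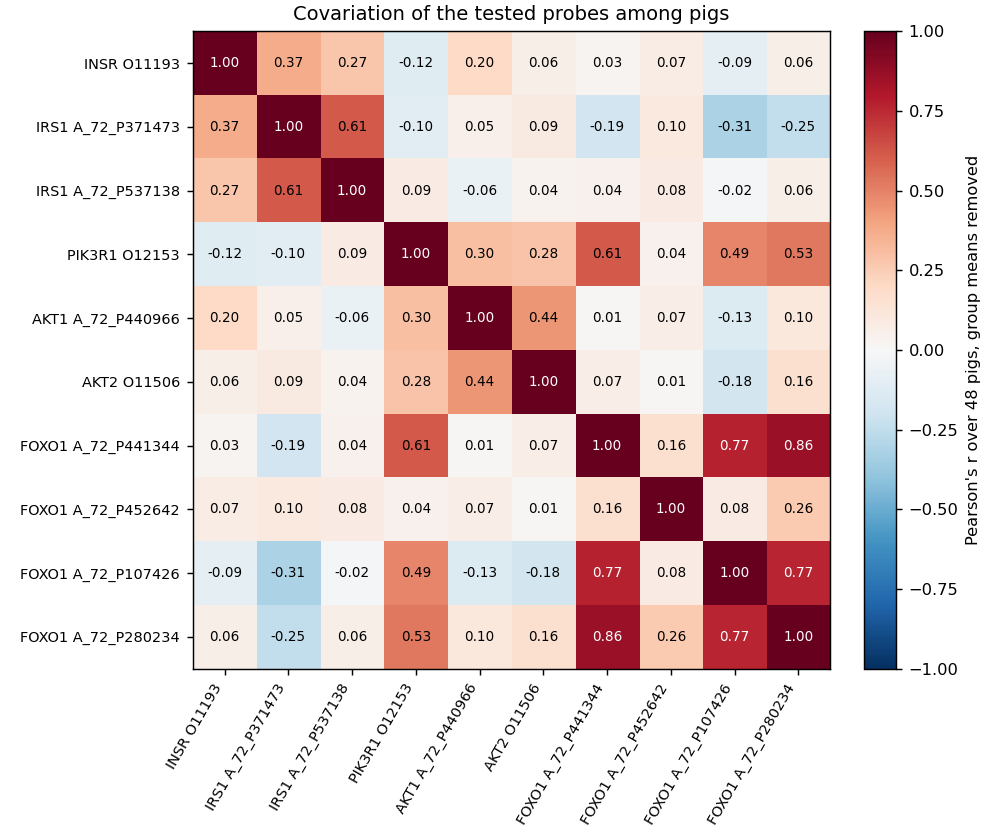
Pearson's r between the 10 tested probes over 48 pigs after the mean of each diet and line group was removed. Red is positive and blue negative; the FOXO1 probes other than A_72_P452642 form a block with PIK3R1 (0.49 to 0.86), and AKT1 with AKT2 (0.44) and the IRS1 probes (0.61) form pairs.

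The likeness of each gene's brightest tested probe to 28563 other probes, 1 per name, was ranked in the same way, as a description over 48 pigs. FOXO1 was closest to a probe named TC545191 (r = 0.91) and to the one carrying its own mRNA record. PIK3R1 was closest to LOC100514498 (0.82) and ENSSSCT00000008394 (0.75). AKT1 was closest to an unnamed probe, A_72_P257627 (0.92), and to EIF4EBP1 (0.70), which encodes a translation repressor downstream of AKT. AKT2 was closest to C19ORF33 (0.67) and to LOC100155036 (0.66), listed as OGG1 in the RefSeq table. IRS1 was closest to the unnamed probe A_72_P147951 (0.89) and to OTTSUST00000000555 (0.68), and INSR to DY424272 (0.75) and ENSSSCT00000014813 (0.67).

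Around these members, 70 further genes of the pathway were listed in 9 groups by role, of which 54 had a tested probe. The brightest tested probe of a gene rose in HF pigs for 9 genes and fell for 13, against 10.4% higher and 13.6% lower (24.0% called) over the brightest probes of all 28646 names. The lists were chosen with earlier results of these data known and hold genes that the paper reports as lower on HF, such as GSK3B and HK2. A share of calls above that of all names is thus partly built in and is no test of the pathway. The median difference was -0.04 over the 54 genes and -0.01 over all names. At the receptor, 2 of 7 tested inhibitors rose, SOCS3 (0.40, SE 0.14, limma adjusted p = 0.0241) and GRB10 (0.38, SE 0.14, adjusted p = 0.0296), both of which restrain the receptor or its substrates, and 0 fell. Among the tested adaptors, GRB2, which couples the receptor to the RAS pathway, rose by 0.14 (SE 0.05, adjusted p = 0.0164). Most tested probes of these genes were not called: 1 of 3 was called for SOCS3, 3 of 7 for GRB10 and 1 of 4 for GRB2. The calls of GRB10 and GRB2 were both lost with Agilent's processed signal centred on the median and with array weights, each of which left 7 pathway genes higher, and GRB10 lay between 0.19 and 0.57 over all settings.

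Beside PIK3R1, 2 of 3 tested PI3K subunits rose, PIK3R5 (0.46, SE 0.10, limma adjusted p = 0.0005) and PIK3CG (0.39, SE 0.12, adjusted p = 0.0115), which form a kinase best known from white blood cells. The macrophage values above also were higher on HF, but a link between them and these 2 subunits was not tested. By brightest probes, PIK3R5 was also the only pathway gene called for line (-0.31 in low against high RFI, SE 0.10, limma adjusted p = 0.079), and the call was lost under 7 of 18 alternatives, among them the scan day block and the two-way ANOVA. A dimmer probe of PTPN1, a phosphatase that acts on the receptor, was called higher in low-RFI pigs (A_72_P131831, 0.18, SE 0.06, adjusted p = 0.0667), 1 of its 5 tested probes. Of 4 tested phosphatases, PHLPP1, which removes phosphate from AKT, rose by 0.35 (SE 0.08) and PPP2CA, a catalytic subunit of protein phosphatase 2A, fell by 0.17 (SE 0.04), a call lost under both quantile normalisations and spike-in centring. For PHLPP1 1 of 3 tested probes was called, and for PPP2CA 4 of 7.

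Downstream, AKT substrates gave 1 higher and 2 lower of 5 tested. GSK3B, the kinase that AKT switches off to allow glycogen synthesis, fell by 0.38 (SE 0.05, limma adjusted p = 4.74e-07), and in each of the 24 HF pigs it was lower than the average of LF pigs. TBC1D1, a regulator of glucose transporter traffic, rose by 0.31 (SE 0.05), and BAD fell. Of 5 tested kinases that act on or beside AKT, MAPKAP1, a part of mTOR complex 2, fell by 0.20 (SE 0.05). In the mTORC1 branch, EIF4E fell by 0.19 (SE 0.06) and RPS6KB1 by 0.17 (SE 0.05), with 0 of 7 higher. The calls of BAD and RPS6KB1 were lost under both quantile normalisations and spike-in centring, where RPS6KB1 was at -0.03 (its call was also lost with the processed signal scaled to the 75th percentile), and those of MAPKAP1 and EIF4E under spike-in centring, at -0.06 and -0.05.

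FOXO family members and FOXO targets gave 2 higher and 1 lower of 10 tested. PCK1, the enzyme that feeds glyceride-glycerol synthesis in fat, rose by 1.72 (SE 0.36, limma adjusted p = 0.000274) and PDK4, the kinase that blocks pyruvate oxidation, by 0.83 (SE 0.23, adjusted p = 0.0063), while SESN1 fell. FOXO3 was not called on any of its 3 probes. The brightest probe of FOXO4 was not called (-0.08, SE 0.06), but of its 4 tested probes A_72_P443146 fell by 0.23 (SE 0.06, adjusted p = 0.0019) and A_72_P400198 by 0.17 (SE 0.06, adjusted p = 0.0301). The fall of SESN1 was not called under either quantile normalisation or spike-in centring. Genes that insulin is known to raise in fat cells gave 0 higher and 5 lower of 8 tested: ACACA (-0.90, SE 0.15) and HK2 (-0.79, SE 0.13) had the largest differences, and SCD, SLC2A4 and FASN fell too, although FASN was not called under the quantile normalisations or spike-in centring. Of the pathway genes not called by their brightest probe, 3 had another probe called for diet, each lower: FOXO4, PIK3R2 and SREBF1. Only part of the tested probes was called for TBC1D1 (2 of 3), RPS6KB1 (2 of 4) and SLC2A4 (2 of 4). Each tested probe was called for GSK3B, EIF4E, PCK1, PDK4, HK2, FASN, ACACA and SCD. With the arrays of a single scan day, the calls of GRB2, SOCS3, PIK3CG and EIF4E were lost on either day, those of GRB10, PPP2CA, MAPKAP1, BAD, RPS6KB1 and PDK4 on day 1 alone, and those of SESN1 and SLC2A4 on day 2 alone. PDK4 lay between 0.46 and 1.19 over all settings.

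**Figure D5:**
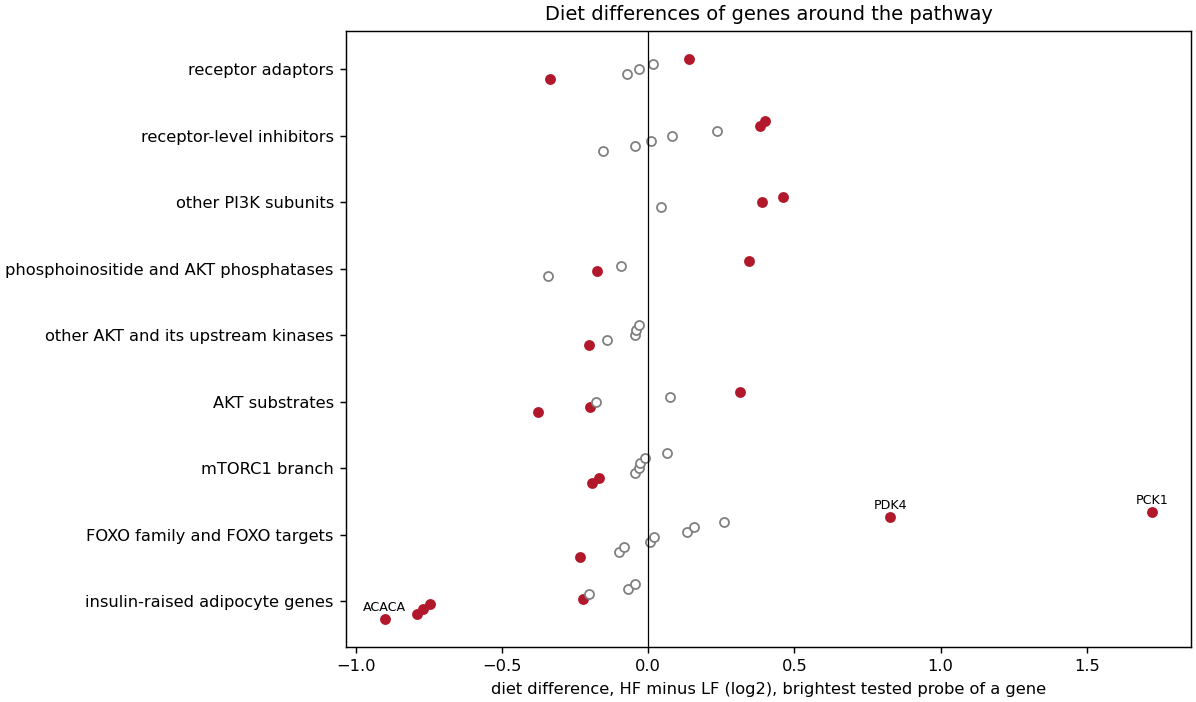
Diet difference (HF minus LF, log2) of the brightest tested probe of each of 54 genes around the pathway, by group. Filled red points are called and open points are not; PCK1 (1.72) and PDK4 (0.83) lie highest and ACACA (-0.90) lowest.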

How the data were processed

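Perirenal fat RNA of 48 pigs was put, after Cy3 labelling, on Agilent porcine arrays of 1 colour by the authors, whose deposited scanner files hold spot intensity and other values, namely spot flags, per array. The processing notes name R 2.10.0. The deposited table of normalised values was not used, because its row names did not match its values. Here, log2 of the median spot intensity was centred on the array median of non-control probes, and spots with outlier flags were left out. Between 38875 and 47813 probes per array were well above background, and none of the members' spots was saturated. Slides (6) and scan days (2) held equal numbers of each group. limma 3.58.1 (R 4.3.3) fitted diet, line and their interaction over 40509 probes, and the fit was tested on simulated data. Permutation tests drew 100000 permutations (scipy 1.17.1). Named genes were all member probes, every listed gene called (1 result and 1 sequence are not reported here), with values for the 2 largest differences of a list, and the 2 names most like each member. The members and lists, of pathway genes and cell type markers, were chosen with earlier results of these data known. Alternatives covered background, centring, filters, flags, blocks, weights and thresholds.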

Additional observations from a re-analysis of the deposited data

How the results depend on the processing

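Under 18 alternatives to the limma fit, FOXO1 A_72_P452642 was called each time for diet, at 0.26 to 0.42. The probes called for diet numbered 2 under normexp with quantile normalisation and 2 under quantile normalisation of median signals, where IRS1 A_72_P371473 joined. They numbered 6 when arrays were centred on spike-ins, an alternative chosen after seeing the data that moved the median diet difference of all tested probes from -0.022 to 0.118; FOXO1 A_72_P452642 was then at 0.42 and INSR at 0.18. With probes of a gene averaged, 0 genes were called. Calls for line and for the interaction stayed at 0 under all their alternatives. Of all diet calls 62.7% were lower in HF pigs, against 48.6% with the 75th percentile, 48.2% with normexp and quantile, 48.1% with quantile alone and 8.26% with spike-ins. Of the listed genes, spike-in centring called 15 higher and 5 lower, normexp with quantile and quantile alone 7 lower each, and scan day 1 alone 4 higher and 7 lower; no listed gene called in the main setting changed sign. The line call of PIK3R5 fell to 0 without filter, by ANOVA, with scan day block, at an adjusted p under 0.05, with spike-ins, on either scan day alone and with gene means. As a replicate block, the shared numbers left the member calls at 1 for diet and 0 for line and raised listed genes called higher for line to 1; over all probes it called 10709 for diet and 1944 for line. No source says that a number marks a shared litter or batch, and not every same-numbered pair correlated above 0.1 (-0.24 to 0.50), so the numbers were not used as pairs. As a hint from the data, the median r was 0.13 for the same number, 0.05 for another number on the same slide and -0.02 on other slides, and 16 of 48 arrays correlated best with their own number. Dim probes limit IRS1, PIK3CA and FOXO1 O2940. Causes were not tested.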

Other observations

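A probe outside the rule, named TC548228 and described as partly like mouse insulin receptor substrate 2, had a level of 0.01 ± 0.18 (SD, n = 24) on HF and of 0.11 ± 0.10 (SD, n = 24) on LF. Its difference of -0.09 (SE 0.04) did not pass the test (limma adjusted p = 0.0948), and 17 of the 24 levels on HF were under the LF average. A probe named FOXO4 but described in the files as forkhead box O1A (A_72_P514181) had r of -0.04 and 0.07 with FOXO1 A_72_P441344 and A_72_P452642 over 48 pigs with group means removed, and a diet difference of -0.14 (SE 0.07) that did not pass the test either. By its name it is among the 4 tested probes counted for FOXO4 above, and which gene it follows was not tested. Both were singled out after their values were seen. Of custom probes sharing a run of 30 bases with a catalogue probe on 1 strand only, 97 did so in reverse and 1657 in the same direction, which bears on how often a name's strand is turned on this array.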
